A study of Mus musculus with 4 samples.

Results

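The genes described are 42 genes for proteins that bind actin filaments or form the contractile apparatus of smooth muscle. A gene was represented by a probe set to which the platform annotation gives its symbol and no other, and by the brightest one over all 4 arrays where there were several. On that rule 35 of the 42 genes were measured, and 31 of these passed the filter on dim probe sets and were tested. Flnc, Lmod1, Tmod1, Arpc1b, Arpc3, Nexn and Synpo2 had no probe set of their own under the rule and are not analysed here. The whole table held 12422 probe sets besides 66 controls, of which 7453 were tested.

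Transgenic mice, with moderate overexpression of serum response factor (SRF) restricted to the heart, were compared with non-transgenic mice. Both groups were 6 months old, and total RNA of the cardiac ventricle was hybridised to 2 Affymetrix oligonucleotide arrays per group, 1 array for each sample. The sources used here name neither the promoter that drives the transgene nor the strain or sex. Nothing in the labels says whether each sample is a mouse of its own. A p-value here reflects only the spread among the samples, for the gene itself and, in part, for all probe sets tested. Part or all of that spread may be technical. Median signals were 49.0 and 50.6 on the transgenic arrays and 53.9 and 52.3 on the non-transgenic arrays, and only 2 arrays a group limit the precision of every value. The cardiomyocyte markers of the ventricle all passed the filter on dim probe sets (14 of 14 measured genes were tested). Their signals differed widely. Actn2, the lowest, had 99.5 and 134.4 units in transgenic and 145.9 and 118.4 units in non-transgenic samples. Myh6 had 8729.7 and 7950.4 units in transgenic and 10497.1 and 10715.6 units in non-transgenic samples. Hepatocyte transcripts differed between the groups, and 14 of them summed to 278.3 and 334.6 units of signal in transgenic, against 2873 and 5459 units in non-transgenic ventricle. None of the 42 genes is in that hepatocyte list, and what this difference contributed to their values was not tested.

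Actin monomers assemble into filaments that are elongated by profilin-bound subunits, branched by the Arp2/3 complex, capped at their ends, bundled by alpha-actinins and plastins, tied to the membrane by talin, vinculin, dystrophin and the ERM proteins, and taken apart by the cofilin family and gelsolin. In smooth muscle the filaments slide on a myosin II whose light chain is phosphorylated by myosin light chain kinase, with calponin, transgelin and smoothelin bound along them. Many genes of this kind carry a CArG box, the DNA element that SRF binds, and SRF is itself held in check by the pool of free actin through its MRTF cofactors. In adult heart, most of the smooth muscle isoforms belong to the vessel wall, whereas cofilin, gelsolin, vinculin and talin are made by several cell types.

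Transgenic ventricle had more RNA for 8 of the 31 tested genes and less for 0 of them. Those higher were Dstn, Capg, Mylk, Actn1, Msn, Cnn2, Actn4 and Arpc2, in order of size, by 1.43-fold to 2.26-fold, and only Dstn passed 2-fold. They came from 7 of the 9 roles into which the genes were sorted. The smooth muscle genes Tagln, Myh11, Myl9 and Smtn did not pass the test, and neither did the adhesion proteins Vcl and Tln1. Not passing did not show that a level was equal. It was also not the result for every smooth muscle marker. Cnn1 was too dim to test, with 31.8 and 34.1 units in transgenic and 20 and 7.8 units in non-transgenic samples. The smooth muscle actin Acta2, which was read from other lists and is not counted here, rose 3.59-fold (adjusted p = 0.000215 in limma). The share higher was 25.8% of the tested genes, against 4.07% of all probe sets tested, and the share lower was 0% against 3.86%, so that 7.93% of all probe sets passed in either direction. Tests were made with limma on log2(signal + 9), two-sided, with Benjamini-Hochberg adjustment over all 7453 probe sets and an adjusted p threshold of 0.05.

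Without the threshold, of the 31 tested genes, 23 had a change above 0 and 8 below 0, a share of 74.2% above 0 where 48.7% of all tested probe sets were. Both transgenic arrays lay above both non-transgenic arrays for 21 of them (67.7%) and below both for 3, while this was so for 27.8% and 28.1% of all probe sets tested. At an unadjusted p below 0.05, 13 were higher and 1, Vcl, was lower, where 11.8% and 12.3% of all probe sets were. The median log2 change of the 31 genes was 0.19, and that of all tested probe sets was -0.01. These are counts over genes that were chosen with earlier results known, and no test was made of the set.

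**Figure D1:**
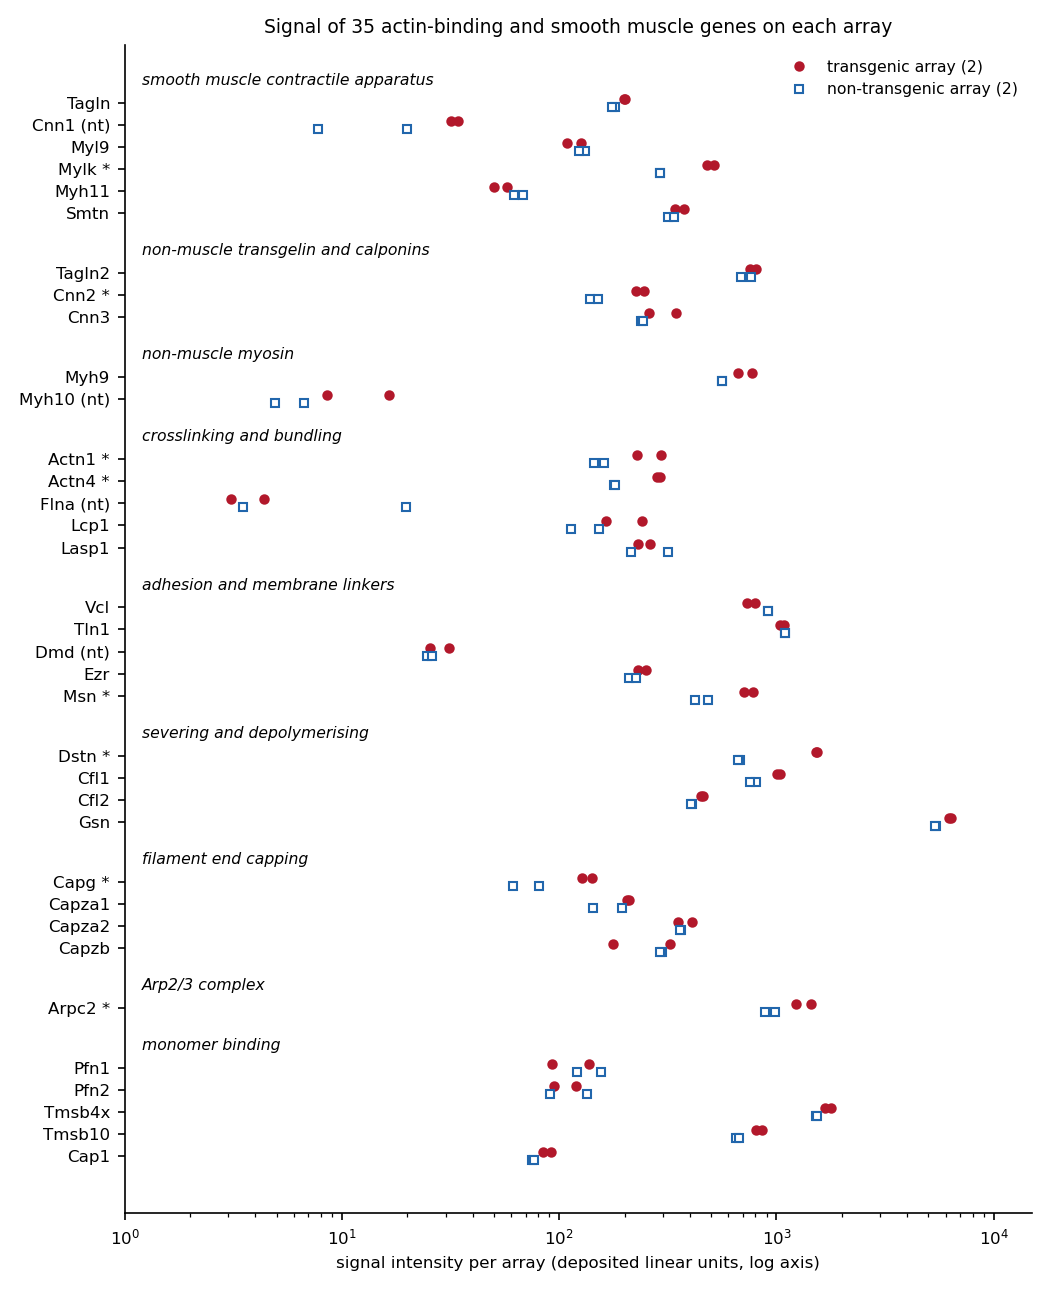
Signal intensity (horizontal, log axis, linear units as deposited) of the 35 measured genes on each of the 2 transgenic arrays (filled circles, drawn above) and the 2 non-transgenic arrays (open squares, drawn below), sorted by role. An asterisk marks the 8 genes that passed the test and "nt" the 4 that were too dim to be tested; for Dstn the transgenic arrays stand at 1529 and 1523 against 680.1 and 662.1.

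The CArG box, which SRF binds, was searched for in the promoter windows that RefSeq gives for these genes on GRCm38.p6, each with 250 bases before and 50 bases after the gene's start. The box was taken by its consensus and reads the same on both strands, so one pass covers both. Windows were found for 39 of the 42 genes (none for Tagln, Myh11 and Nexn), and 4 of the 39, or 10.3%, held the box, against 488 of 27025 genes, or 1.81%, in the whole table and 89 of 4578 genes, or 1.94%, among those tested on the arrays. The 4 were Cnn2, Myl9, Vcl and Dmd, and their sequences are shown because they pair a readable box with different behaviour of the RNA. Each is printed 5′ to 3′ on the plus strand, the strand of the gene, with the box in capitals:
Cnn2, chr10:79988499-79988598: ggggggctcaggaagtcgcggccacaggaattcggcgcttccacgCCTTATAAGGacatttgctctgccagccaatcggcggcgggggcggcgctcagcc
Myl9, chr2:156775258-156775357: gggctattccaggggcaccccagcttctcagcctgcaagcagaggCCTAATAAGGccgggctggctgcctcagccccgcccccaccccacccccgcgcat
Vcl, chr14:20929148-20929225: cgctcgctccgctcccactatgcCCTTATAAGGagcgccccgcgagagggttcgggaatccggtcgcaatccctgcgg
Dmd, chrX:82948727-82948826: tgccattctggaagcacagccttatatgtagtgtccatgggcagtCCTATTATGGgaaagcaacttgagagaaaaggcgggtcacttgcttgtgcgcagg

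The box of Cnn2 begins 56 bases before the gene's start, that of Dmd 98 bases, that of Myl9 161 bases and that of Vcl 227 bases before it. Cnn2 and Vcl carry the same 10 letters, and their RNAs differed: Cnn2 rose 1.60-fold, while Vcl had a log2 change of -0.26 that did not pass. The Myl9 signal overlapped between groups, and Dmd was too dim to test. Of the 8 genes that rose, 1 (Cnn2) had the box in its window, as did 2 of the 21 tested genes with a window that did not pass. Boxes farther from the start, in introns or in other promoters were not searched.

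Dstn, which rose most, had no full box in its window. A looser search for the box with 1 letter of its A and T core replaced by G or C found it in the windows of Dstn, Myl9, Gsn and Flnc, which is 10.3% of the 39 genes against 9.69% of all genes, a share near the background. The Dstn stretch, printed because it is the gene with the largest change, has such a looser match in capitals that begins 106 bases before the start:
Dstn, chr2:143915211-143915330: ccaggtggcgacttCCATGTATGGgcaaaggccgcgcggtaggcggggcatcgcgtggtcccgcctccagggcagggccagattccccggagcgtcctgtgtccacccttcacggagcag

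Among the genes of actin disassembly, Dstn changed most. Dstn encodes destrin, also called actin-depolymerising factor, which severs filaments and releases monomers from their ends. Its signal was 1529.1 and 1522.8 on the transgenic arrays, against 680.1 and 662.1 on the non-transgenic arrays. Each pair of arrays agreed closely, and the groups were far from overlapping. The log2 change was 1.17 ± 0.08 (SE), or 2.26-fold, with an adjusted p of 0.000616 in limma, and it ranked 81 from the top among the 7453 tested probe sets. Its log2 change was 1.16 to 1.19, with adjusted p up to 0.00298 in limma, when any 1 array was left out.

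The paralogs of destrin did not pass. Cfl1, the cofilin found in most cells, had 1002.9 and 1037.1 units in transgenic ventricle, against 808.2 and 759.1 units in non-transgenic ventricle. Cfl2, the cofilin of muscle, had 447.8 and 458.8 units in transgenic and 407.2 and 404.1 units in non-transgenic samples. The arrays of the groups were separate for both genes, but neither passed in limma (adjusted p = 0.0516 and 0.409). Cfl1 had a log2 change of 0.38 ± 0.09, and it did pass after median centring and under a stricter filter that dropped the lowest 60% (adjusted p = 0.0281 and 0.0351 in limma).

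Gsn encodes gelsolin, a calcium-activated protein that severs filaments and caps their fast-growing end. Its signal was 6367.5 and 6248.3 in the transgenic samples, against 5402.4 and 5354.0 in the non-transgenic samples. The groups did not overlap and the pairs were tight, but the log2 change was small, at 0.23 ± 0.06, with an adjusted p of 0.0569 in limma. It passed after median centring (0.31, adjusted p = 0.0255 in limma), after quantile normalization (0.39, adjusted p = 0.0109 in limma) and under the filter that dropped the lowest 60% (adjusted p = 0.0391 in limma). Of the 4 genes for disassembly 1 rose, where 4.07% of all tested probe sets did, and all 4 had both transgenic arrays above both non-transgenic ones, where 27.8% of all tested probe sets had.

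Of the capping proteins, 1 of 4 tested rose, where 4.07% of all tested probe sets did. Capg, a gelsolin relative that caps but does not sever and is abundant in macrophages, had 141.7 and 127.0 units in transgenic ventricle, against 61.5 and 80.7 units in non-transgenic ventricle. The groups were apart, and Capg rose 1.80-fold (log2 change 0.85 ± 0.19, adjusted p = 0.0409 in limma). A pair of other Capg probe sets was too dim to test, and their arrays overlapped between groups. For Capza1, an alpha subunit of CapZ, the values were 206.1 and 209.5 in transgenic and 143.2 and 194.9 in non-transgenic samples, with an adjusted p of 0.336 in limma. Capza2 (log2 change 0.06) and Capzb (-0.29), the other CapZ subunits, overlapped between groups, and the Capzb signal was 323.6 and 176.1 on the transgenic arrays themselves, against 295.8 and 291.1 on the non-transgenic arrays.

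Arpc2, a core subunit of the Arp2/3 complex that nucleates branches, had 1447.2 and 1235.9 units in transgenic ventricle, against 889.9 and 983.1 units in non-transgenic ventricle. The lower transgenic array was above the higher non-transgenic one, and the gene rose 1.43-fold (log2 change 0.51 ± 0.11, adjusted p = 0.0355 in limma). Other subunits of the complex were read from a wider list. Actr3 had a log2 change of 0.26, Arpc1a 0.18, Arpc5 -0.03, Arpc4 -0.40 and Arpc5l -0.50, and none of these 5 passed in limma (adjusted p = 0.209, 0.485, 0.936, 0.145 and 0.115). The signals of Arpc4 were 336.0 and 379.2 in transgenic and 531.1 and 423.7 in non-transgenic samples, which is the opposite order to that of Arpc2.

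Monomer-binding proteins gave no call. Tmsb10, a thymosin that sequesters free actin, had 858.3 and 802.3 units in transgenic and 651.0 and 674.3 units in non-transgenic ventricle (log2 change 0.32 ± 0.10, adjusted p = 0.0949 in limma). Tmsb4x, the main beta-thymosin, had 1791.1 and 1675.1 units in transgenic and 1522.3 and 1532.8 units in non-transgenic samples (log2 change 0.18, adjusted p = 0.221 in limma). The groups were separate for both thymosins and for the cyclase-associated protein Cap1, with 92.0 and 84.1 units against 74.8 and 76.8 units. The profilins Pfn1 (log2 change -0.27) and Pfn2 (-0.05), which load monomers onto growing ends, overlapped between groups, and the 95% interval of the change ran from -0.79 to 0.26 for Pfn1 and from -0.58 to 0.48 for Pfn2.

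Both non-muscle alpha-actinins rose. These proteins crosslink filaments in stress fibres and adhesions, whereas the cardiac Z-disc uses Actn2. Actn4 had 289.8 and 282.0 units in transgenic ventricle, against 178.8 and 180.4 units in non-transgenic ventricle, a 1.56-fold rise with little spread in either group (log2 change 0.64 ± 0.12, adjusted p = 0.0263 in limma). Actn1 had 294.3 and 227.0 units in transgenic and 144.1 and 160.6 units in non-transgenic samples, and rose 1.66-fold (0.73 ± 0.17, adjusted p = 0.0432 in limma). The brightest Actn1 probe set belongs to a type that can take up signal from related transcripts, and whether it did was not tested. All 3 Actn1 probe sets were higher in the transgenic samples, at 0.73, 0.63 and 1.13 on the log2 scale. The probe set at 1.13 passed as well (62.6 and 85.6 against 31.4 and 26.1 units, adjusted p = 0.0377 in limma). The probe set at 0.63 did not (adjusted p = 0.166 in limma). The cardiac isoform Actn2 had 99.5 and 134.4 units in transgenic and 145.9 and 118.4 units in non-transgenic samples, so the groups overlapped for it (log2 change -0.17, adjusted p = 0.649 in limma).

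Lcp1, the plastin of leukocytes that bundles filaments, had 239.8 and 164.3 units in transgenic and 153.2 and 113.5 units in non-transgenic ventricle. Its groups did not overlap, but the pairs were wide and the change of 0.56 ± 0.22 did not pass (adjusted p = 0.184 in limma). A dimmer second Lcp1 probe set had 22.9 and 36.9 units in transgenic and 10.1 and 10.9 units in non-transgenic samples and was not tested. Lasp1, a LIM and SH3 protein of adhesions, overlapped between groups at 231.0 and 260.6 units in transgenic and 214.4 and 316.3 units in non-transgenic samples. Flna, the widespread filamin, had 4.4 and 3.1 units against 3.5 and 19.7 units, below the filter, so its probe set gave no usable value here.

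Of the proteins that fasten filaments to the membrane, 1 of 4 tested rose, where 4.07% of all tested probe sets did. Msn encodes moesin, the ERM protein of endothelium and blood cells, and had 783.8 and 706.8 units in transgenic ventricle, against 422.6 and 485.5 units in non-transgenic ventricle. The groups were well apart and Msn rose 1.63-fold (log2 change 0.71 ± 0.12, adjusted p = 0.0162 in limma). Ezr, or ezrin, the ERM protein of epithelia, had 231.1 and 249.9 units in transgenic and 209.1 and 225.9 units in non-transgenic samples (log2 change 0.14, adjusted p = 0.560 in limma), and Rdx, or radixin, which completes the family and was read from the list of other actin genes, changed by 0.14 as well (adjusted p = 0.491 in limma).

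Vcl, or vinculin, which strengthens adhesions and intercalated discs, was lower on both transgenic arrays without passing. Its signal was 793.6 and 731.8 in transgenic ventricle, against 910.6 and 917.6 in non-transgenic ventricle, with a log2 change of -0.26 ± 0.09 and an adjusted p of 0.148 in limma. A second, dimmer Vcl probe set gave 0.00 (59.0 and 44.9 against 62.5 and 42.4 units). Tln1, or talin, which activates integrins and binds vinculin, had 1043.3 and 1078.5 units in transgenic and 1096.1 and 1097.7 units in non-transgenic samples, and its 3 probe sets gave -0.05, -0.11 and -0.24 on the log2 scale, none of which passed. Dmd, dystrophin, had 31.2 and 25.5 units in transgenic and 24.7 and 25.9 units in non-transgenic samples and was too dim to test.

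**Figure D2:**
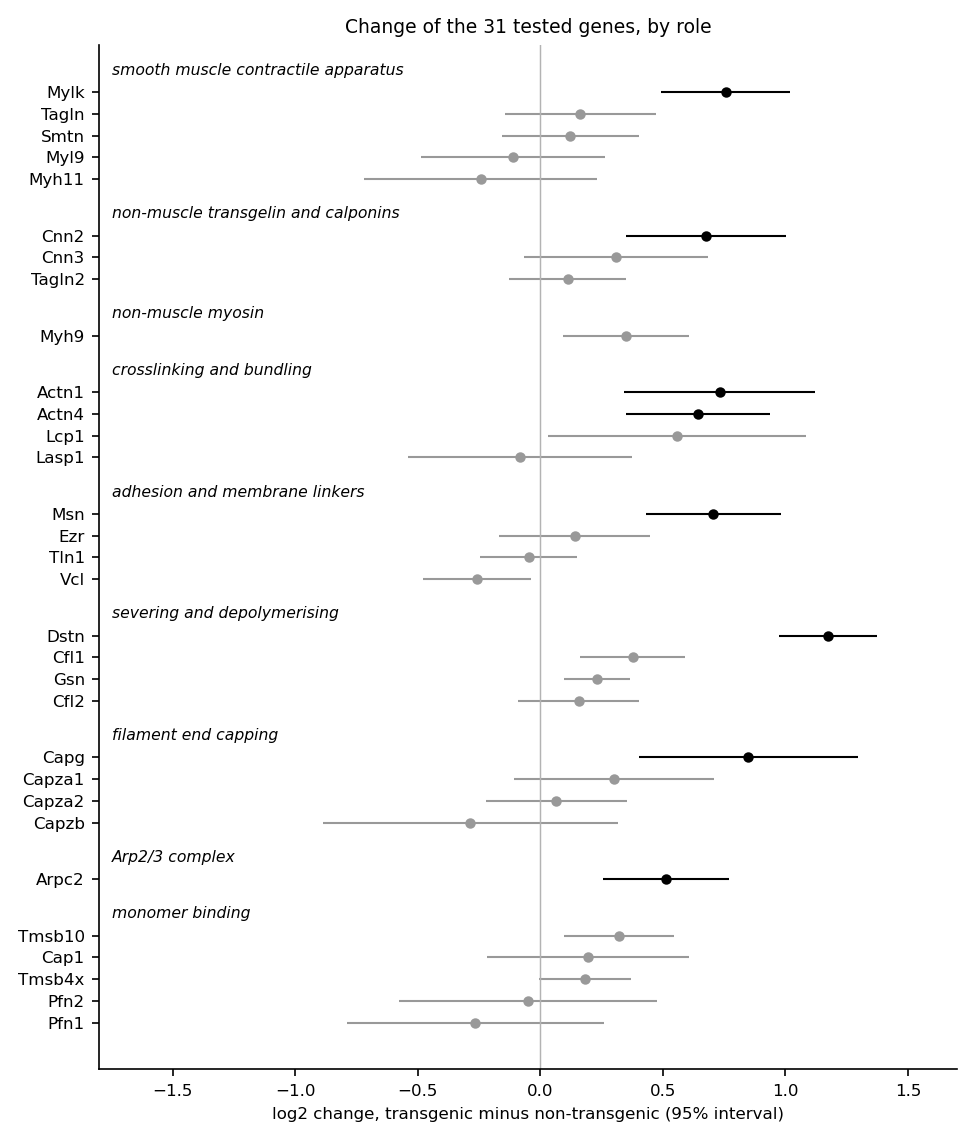
Log2 change (transgenic minus non-transgenic, horizontal) of the 31 tested genes with 95% intervals from limma, grouped by role and sorted within each role. Black points are the 8 genes that passed at an adjusted p of 0.05 and grey points the other 23; Dstn stands farthest right at 1.17, and Capzb and Pfn1 lie farthest left, at -0.29 and -0.27.

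Of the smooth muscle contractile genes, 1 of 5 tested rose, where 4.07% of all tested probe sets did. Mylk encodes myosin light chain kinase, which switches on smooth muscle and non-muscle myosin II, and had 478.3 and 516.8 units in transgenic ventricle, against 289.7 and 291.4 units in non-transgenic ventricle. Both transgenic arrays were far above the closely matched non-transgenic pair, and the gene rose 1.69-fold (log2 change 0.76 ± 0.11, adjusted p = 0.0117 in limma). With any 1 array left out, Mylk still passed (adjusted p up to 0.0418 in limma), as only Dstn did besides. Mylk gives rise to a long non-muscle form, a short smooth muscle form and telokin, and the annotation does not say which of these the probe set reads.

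The other smooth muscle genes of the set, which does not hold Acta2, did not pass or were too dim to test. Tagln, transgelin or SM22 alpha, an early marker of the lineage, had 201.1 and 198.8 units in transgenic and 179.8 and 175.4 units in non-transgenic ventricle, a small separation of the groups with a 95% interval of -0.15 to 0.47 on the log2 scale. Smtn, smoothelin, a marker of contractile smooth muscle, had 339.8 and 373.6 units in transgenic and 316.3 and 337.3 units in non-transgenic samples (interval -0.16 to 0.40). Myl9, the regulatory light chain that Mylk phosphorylates, had 126.0 and 108.6 units in transgenic and 130.8 and 123.7 units in non-transgenic samples (interval -0.49 to 0.26). Myh11, the smooth muscle myosin heavy chain, was lower on both transgenic arrays, at 57.4 and 50.3 units against 62.2 and 68.5 units (log2 change -0.24 ± 0.20, interval -0.72 to 0.23). None of these 4 passed in limma (adjusted p = 0.492, 0.578, 0.717 and 0.506), and the intervals do not show that their levels were equal.

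Cnn1, the smooth muscle calponin, was dim, with 31.8 and 34.1 units in transgenic and 20 and 7.8 units in non-transgenic samples. Its arrays did not overlap between groups, but it stood below the filter and was not tested.

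Among the calponins and transgelin outside smooth muscle, Cnn2 rose. Cnn2 is a calponin of fibroblasts, macrophages and other motile cells, and had 225.6 and 246.4 units in transgenic ventricle, against 138.9 and 150.1 units in non-transgenic ventricle. The groups were clearly separate, with a 1.60-fold rise (log2 change 0.67 ± 0.14, adjusted p = 0.0320 in limma). Cnn3, the acidic calponin, had 345.9 and 259.8 units in transgenic and 238.1 and 242.8 units in non-transgenic samples, so that the transgenic pair was wide and the change of 0.31 did not pass (adjusted p = 0.287 in limma). Its probe set is also of the type that can take up signal from related transcripts. Tagln2, the transgelin of non-muscle cells, overlapped between groups, at 757.1 and 809.0 units in transgenic and 759.7 and 690.3 units in non-transgenic samples.

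The non-muscle myosin heavy chain Myh9, the motor of stress fibres, had 768.1 and 667.2 units in transgenic and 560.8 and 558.7 units in non-transgenic ventricle. That separation gave a log2 change of 0.35 ± 0.11 that did not pass (adjusted p = 0.106 in limma), and a second Myh9 probe set, of a type that can take up related transcripts, gave -0.05. Myh10, the other non-muscle heavy chain, had 16.5 and 8.5 units in transgenic and 6.7 and 4.9 units in non-transgenic samples and was too dim to test.

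Neighbouring parts of the actin system were read from lists written with earlier results known. Of the 6 actin isoforms, the smooth muscle isoform Acta2 (1478.2 and 1539.0 units in transgenic, against 396.7 and 430.6 units in non-transgenic ventricle) and the skeletal isoform Acta1 rose, and 4 did not pass. The enteric smooth muscle isoform Actg2 overlapped between groups, with a log2 change of 0.02, as did the cytoplasmic isoforms Actb (-0.04) and Actg1 (0.00). The Actg2 probe set is of the type that can take up signal from related transcripts, and whether it did was not tested. Of 14 genes tested in a list of other smooth muscle genes, Acta2, Csrp2, Csrp1, Fhl1 and Tpm2 rose and 9 did not pass. Fhl1, Fhl2 and Des in this list are not confined to smooth muscle, so its count does not describe smooth muscle alone. The share higher was 35.7% in this list and 33.3% of the actin isoforms, against 4.07% of all probe sets tested, and Acta2 is counted in both lists. Tpm2, the beta-tropomyosin, had 246.3 and 305.2 units in transgenic and 118.3 and 146.3 units in non-transgenic samples (log2 change 1.01 ± 0.17, adjusted p = 0.0175 in limma), while the desmin gene Des (0.28) and Tpm1 (0.15) did not pass (adjusted p = 0.141 and 0.564 in limma).

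Among 24 tested genes for other Arp2/3, capping, bundling and related proteins, 1 rose, 1 fell and 22 did not pass. The shares of 4.17% higher and 4.17% lower were near the 4.07% and 3.86% of all probe sets tested. Pdlim7, a PDZ and LIM protein that binds tropomyosin and alpha-actinin, rose 1.76-fold (339.4 and 318.4 units in transgenic, against 188.3 and 176.9 units in non-transgenic ventricle). The bundling protein Fscn1 fell by 0.58 ± 0.14 on the log2 scale (431.7 and 401.1 units in transgenic, against 556.5 and 700.9 units in non-transgenic ventricle). The Fscn1 call was marginal (adjusted p = 0.0479 in limma) and was lost after median centring (adjusted p = 0.0867 in limma), with no filter, without a variance trend and in 3 of the 4 fits without 1 array (adjusted p up to 0.133 in limma). Pdlim7 lost its call without transgenic replicate 1 (adjusted p = 0.0579 in limma), Tpm2 without transgenic replicate 2 (adjusted p = 0.0549 in limma) and Csrp1 in 3 of the 4 fits without 1 array (adjusted p up to 0.137 in limma).

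**Figure D3:**
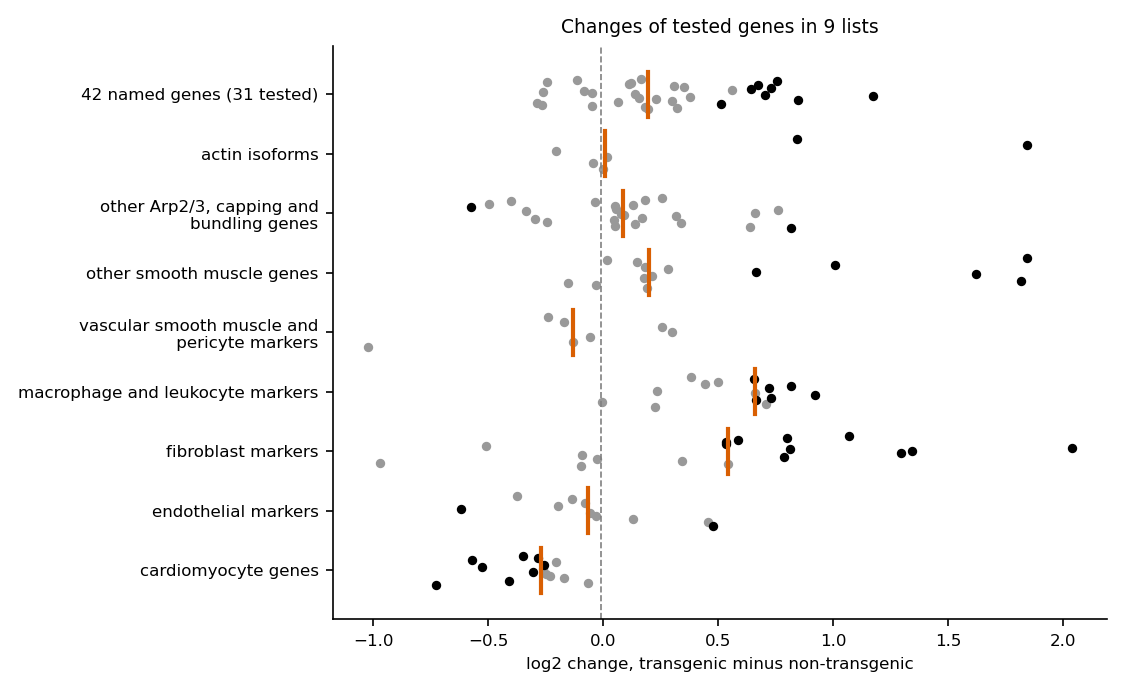
Log2 change (transgenic minus non-transgenic, horizontal) of each tested gene in 9 lists, with genes that passed at an adjusted p of 0.05 in black, others in grey, the median of each list as an orange bar and the median of all tested probe sets as a dashed line. The median stands at 0.19 for the actin-binding and smooth muscle genes, -0.13 for vascular smooth muscle and pericyte markers, 0.66 for macrophage and leukocyte markers, 0.54 for fibroblast markers and -0.27 for cardiomyocyte genes.

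In these tissue samples, fewer cells of a type and less RNA per cell cannot be told apart, and several of the genes that rose are made by more than 1 cell type. Of 7 tested markers of vascular smooth muscle and pericytes, 0 passed as higher, where 4.07% of all probe sets did, so the count is near the background. Notch3 and Mcam had both transgenic arrays above (log2 change 0.25 and 0.30, adjusted p = 0.278 and 0.343 in limma). Vtn, Pdgfrb and Abcc9 had both transgenic arrays below (log2 change -1.02, -0.17 and -0.13, adjusted p = 0.0788, 0.547 and 0.434 in limma). The other tested markers, Rgs5 and Kcnj8, overlapped between groups. The list leaves out Acta2, Tpm2, Csrp1 and Csrp2, which rose. The summed signal of the 10 measured vascular smooth muscle and pericyte markers was 1642 and 1659 in transgenic and 1735 and 1759 in non-transgenic ventricle. These sums include Vtn, at 62.0 and 76.3 units in transgenic and 109.3 and 201.9 units in non-transgenic samples. Vtn was highest on non-transgenic array 2, as was the hepatocyte gene Alb, and what Vtn contributed to the order of the sums was not tested. Itga8 and Kcnmb1 were below 10 units on every array. Macrophage and leukocyte markers rose in 6 of 14 tested cases (42.9%), where 4.07% of all probe sets did, and 0 fell. With 1 array left out 2 to 4 of them passed as higher. The 22 measured markers summed to 4672 and 4866 units in transgenic against 3034 and 3267 units in non-transgenic ventricle. Of their markers 8 were too dim to test. Adgre1 among these had 31.5 and 38.3 units in transgenic and 8.6 and 9.9 units in non-transgenic samples, Itgam 10.6 and 24.3 against 5.7 and 6.7 units, and Lgals3 53 and 47.4 against 20.7 and 10.6 units. Fcer1g was lower on both transgenic arrays, and Ptprc, Aif1, Itgb2 and Fcgr3 overlapped between groups, with Ptprc at 11.9 and 11.4 units in transgenic and 1.2 and 11.9 units in non-transgenic samples. Fibroblast markers rose in 10 of 17 tested cases (58.8%), where 4.07% of all probe sets did, with 0 lower. Fewer of them passed as higher with 1 array left out. Pdgfra and Vim had both transgenic arrays below both non-transgenic arrays (log2 change -0.51 and -0.97, adjusted p = 0.106 and 0.113 in limma). The fibroblast markers summed to 14605 and 14181 units in transgenic, against 9052 and 8905 units in non-transgenic ventricle. Endothelial markers had 1 higher (Eng) and 1 lower (Tie1) of 10, or 10% each, where 4.07% and 3.86% of all probe sets were. Eng and Tie1 both lost the call with no filter on dim probe sets and without a variance trend. Tie1 also lost it after median centring (adjusted p = 0.0556 in limma). Cardiomyocyte genes fell in 8 of 14 cases, where 3.86% of all probe sets did. That count depended on the scaling, since 3 cardiomyocyte genes (Myl3, Tnni3 and Ckm) passed after median centring, 2 (Myl3 and Ckm) after quantile normalization and 2 to 5 with 1 array left out. The part of these cell types in the changes above was not tested.

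The number of calls leaned on single arrays and on the variance model. Where 1 array was left out, the remaining array of that group was assumed to vary as the arrays of the other group do. Without non-transgenic replicate 1, 3 of the 31 genes passed (Dstn, Mylk and Msn); without non-transgenic replicate 2, 4 did (these and Capg); without transgenic replicate 1, 2 did (Dstn and Mylk); and without transgenic replicate 2, 5 did (Dstn, Mylk, Msn, Actn1 and Arpc2). Cnn2 and Actn4 lost the call in limma whichever of the 4 arrays was left out (highest adjusted p 0.131 and 0.115). When the variance prior was not allowed to follow signal, only Dstn passed, and an ordinary two-sample test passed 0 of the 31 after adjustment, with 11 higher at an unadjusted p below 0.05. The direction of the 8 calls was higher in transgenic ventricle under every setting tried, including each scaling.

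**Figure D4:**
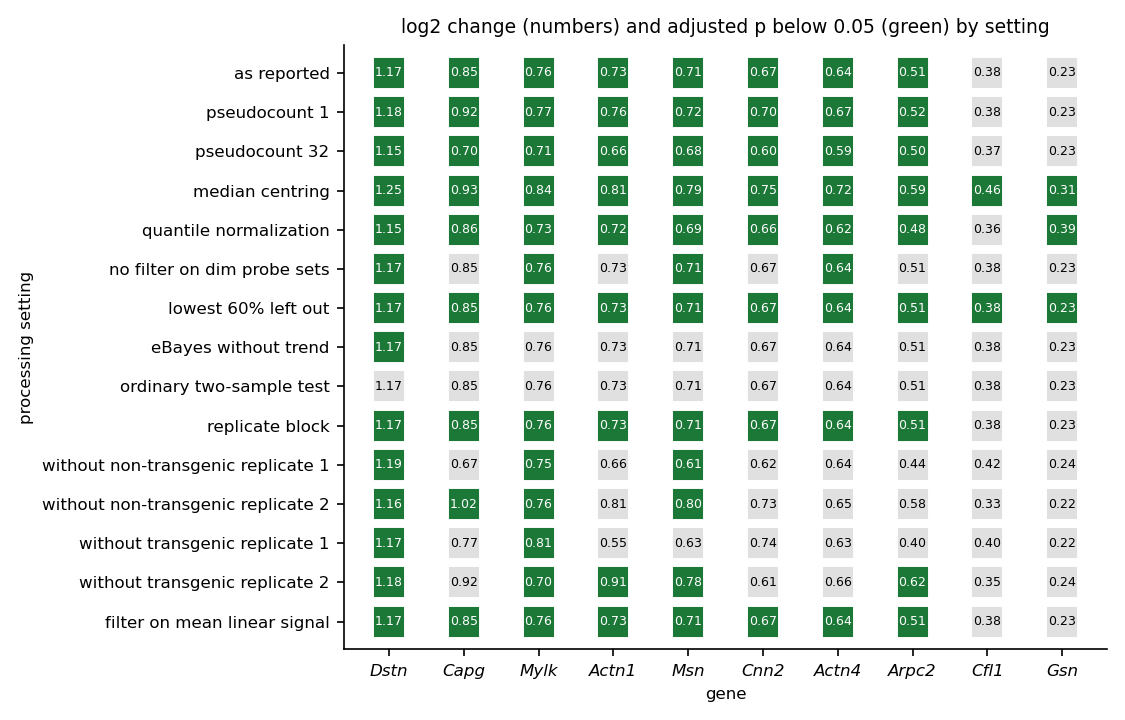
Log2 change (printed number; transgenic minus non-transgenic) of the 8 genes that rose and of Cfl1 and Gsn under the processing settings listed (rows), with green where the adjusted p is below 0.05 and grey where it is not. Dstn stays between 1.15 and 1.25 and is green in every row but the ordinary two-sample test; Cfl1 and Gsn turn green after median centring and when the lowest 60% of probe sets are left out, and Gsn also after quantile normalization.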

How the data were processed

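Ventricular RNA of 2 transgenic and 2 non-transgenic mouse samples was measured on 1 array each. The deposited values are signal intensities per probe set on a linear scale, as judged from the values; trimmed means of the arrays were equal (150.1), as scaling to 1 target gives, and the authors' signal software is not given in the sources used here. Labelling followed the Affymetrix procedure, per the labels' protocols. The 66 control probe sets were left out. Values were taken to log2(value + 9), where 9 is the rounded 20th percentile of positive values, probe sets in the lowest 40% by mean log2 value over all 4 arrays were dropped, and 7453 probe sets were fitted with lmFit and eBayes (trend) of limma 3.58.1 in R 4.3.3. No further scaling was used. Errors beside log2 changes are moderated standard errors. Symbols of all 35 measured genes matched RefSeq through gene numbers. All tested genes of the set are named. From other lists, those past the threshold or with the smallest p are named. Actn2, Rdx, Des, Tpm1, cytoplasmic and enteric actins and the other Arp2/3 subunits were named after their values were seen. So were Pdgfrb, Abcc9, Rgs5, Kcnj8, Pdgfra and Vim. The genes and lists were chosen with earlier results of these data known. Changing pseudocount, scaling, filter, variance model, threshold, probe set, replicate block and left-out array were the alternatives. A further gene list is not reported here.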

Additional observations from a re-analysis of the deposited data

How the results depend on the processing

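The 8 higher genes stayed 8 with a pseudocount of 1 or 32, the replicate block, the dimmest tested probe set per gene, and a filter on the mean linear signal, an alternative chosen after seeing the data. Median centring gave 10 and quantile normalization 9, leaving out the lowest 60% of probe sets 10, and a threshold of 0.10 gave 11; 0 genes were lower under any setting. The number higher was 4 with no filter on dim probe sets, 1 with eBayes without a trend and 0 in an ordinary two-sample test, and 2 to 5 with 1 array left out. All probe sets called numbered 591, against 329 with no filter, 78 without a trend, 0 in the ordinary test (1175 at an unadjusted p below 0.05), 961 at 0.10 and 296 to 401 with 1 array left out. Of all calls 51.3% were higher, and 66.8% after median centring, which moved the median of all probe sets to 0.07. Replicate numbers in the labels are shared between groups but nothing says that they pair the samples; deviations of same-numbered arrays correlated at -0.06, and with the replicate block 693 probe sets and 8 of the 31 genes passed. Some signs turned. After median centring Tln1 was at 0.032 and Pfn2 at 0.029, and under quantile normalization the cardiomyocyte gene Myl2, otherwise lower at -0.28, was at 0.056. With 1 array left out the log2 change ran from -0.35 to 0.19 for Lasp1 (0.19 without non-transgenic replicate 2, 0.00012 without transgenic replicate 1), from -0.31 to 0.21 for Pfn2 (0.21 without non-transgenic replicate 1, 0.10 without transgenic replicate 2), from -0.041 to 0.17 for Capza2 and from -0.71 to 0.14 for Capzb. With the dimmest tested probe set per gene Myh9 was at -0.055, Lasp1 at 0.88, Capzb at 0.092, and the fibroblast markers Col1a2 at -0.17 and Mfap5 at -0.046, although their brightest probe sets rose by 0.80 and 1.34. The cause was not tested. The depth of these values is set by signal over background, which no detection calls describe here, and by 2 arrays a group.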
